A study of Mus musculus with 8 samples.

Results

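The ADAMTS proteases (a disintegrin and metalloproteinase with thrombospondin motifs) described here are Adamts1, Adamts3, Adamts4, Adamts5, Adamts6, Adamts9, Adamts12, Adamts16, Adamts17 and Adamts18. They were taken by gene symbol and make up 10 of the 19 ADAMTS protease genes among the 26711 features. Nuclei came from the primary visual cortex (V1) of GRfl/fl mice at postnatal day 21, which carry floxed alleles of the glucocorticoid receptor (GR) gene Nr3c1 and which were injected at birth with an adeno-associated virus driven by the astrocyte promoter GfaABC1D. GR-KO animals received the virus encoding Cre with EGFP, GR-Con animals received the matching virus with the truncated, inactive ΔCre with EGFP, and both grew up either normally reared (NR) or dark reared (DR). Each of the 4 groups had 2 libraries, 1 male and 1 female. The share of astrocytes that the virus reached is not known from these counts, so a GR-KO library can mix infected and uninfected cells. Levels are CPM, the unique molecular identifiers (UMIs) of a gene per 1000000 UMIs summed over the nuclei of 1 cell type in 1 library.

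ADAMTS proteases are secreted zinc enzymes that cut proteins of the extracellular matrix. Adamts1, Adamts4, Adamts5 and Adamts9 cut the large chondroitin sulphate proteoglycans aggrecan, brevican and versican, which bind hyaluronan and, around neurons, build the perineuronal nets that accumulate in visual cortex as it matures. Adamts3 processes procollagens and also cuts reelin, Adamts12 degrades cartilage oligomeric matrix protein, and Adamts6, Adamts16, Adamts17 and Adamts18 are less well-studied enzymes, several of them linked to fibrillin microfibrils or fibronectin. Furin-type convertases activate the family, tissue inhibitors of metalloproteinases (TIMPs) block it, and receptors such as Lrp1 clear it.

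Libraries held 9517 to 15161 nuclei and 168632129 to 288774016 UMIs. Median UMIs per nucleus (male, then female) were 17759.5 and 15884 in NR GR-Con and 22827.5 and 29223 in NR GR-KO. They were 16968 and 20161 in DR GR-Con and 14928.5 and 14861 in DR GR-KO. Astrocyte medians were 6267 and 5586.5, 8662 and 12123.5, 5307 and 7199, and 4889 and 5227 in the same order. Depth thus cannot be told apart from genotype within a rearing or from rearing in GR-KO, and no depth term was fitted. All 49 cell type markers had their highest mean level in the cell type they mark. There were 1220 cell barcodes that occurred in more than 1 library, at most 66 for any pair. The NR GR-Con male, NR GR-KO male and DR GR-Con female libraries stood apart, with a lowest UMI number per nucleus of 4635, 7024 and 5704 against 1402 to 1460 in the other 5, and with 2, 4 and 4 microglia against 573 to 948. In NR this floor coincided with sex, so the floor and sex cannot be told apart there, and results were also computed with the floor as a term. Astrocytes numbered 924 to 1794 per library. In them Nr3c1 itself was at 231 and 221 CPM in NR GR-Con, 284 and 268 in NR GR-KO, 263 and 207 in DR GR-Con, and 274 and 275 in DR GR-KO (male, then female, here and in all such lists). Its genotype difference did not pass the test in either rearing (adjusted p = 0.51 in NR and 1.00 in DR by the edgeR likelihood ratio test). The GR-KO libraries all lay above the GR-Con libraries. The sources used here do not say whether the counted 3′ tags cover the deleted exon, so this is no check of the deletion. The study itself assessed the loss of GR protein by staining for GR in GFP-labelled cells. Cre UMIs were at 0 in the 4 GR-Con libraries and at 4.14 to 10.4 CPM in the 4 GR-KO libraries.

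The 10 genes lie on 8 mouse chromosomes (GENCODE vM21, GRCm38). Adamts1 (chr16:85793827-85803113) and Adamts5 (chr16:85856173-85901828) are both on the minus strand, 53.1 kb apart with 1 annotated gene between them. Adamts12 (chr15:11064790-11349231, plus strand), Adamts9 (chr6:92772699-92943492, minus strand), Adamts16 (chr13:70727802-70841811, minus strand), Adamts17 (chr7:66839735-67153171, plus strand) and Adamts3 (chr5:89677087-89883334, minus strand) span 114 to 313 kb. Antisense genes that are themselves features overlap Adamts9 (A730049H05Rik, Gm15737 and 9530026P05Rik) and Adamts16 (Gm36607 and Gm36529), and the sources used here do not say how reads were assigned by strand.

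Each protease had its own distribution over the cell types. Means pool the GR-Con and GR-KO libraries of both rearings, so astrocyte means include the genotype differences given below. Among the proteoglycan-cutting members, Adamts4 was an oligodendrocyte gene: it was at 57.7 to 95.6 CPM in the 8 oligodendrocyte libraries (mean 74.9 ± 11.1, SD) and at a mean of 2.67 or less in every other type. Its level pattern over 20 cell types was most like those of 9330117O12Rik and the oligodendrocyte gene Opalin (Pearson r = 0.98 for both). Adamts9 was highest in astrocytes (mean 120 ± 51.2 CPM, n = 8) and in vascular leptomeningeal cells (VLMC; 116 ± 66.8, n = 7), whose ranges overlapped, then in oligodendrocyte precursors (OPC; 50.3 ± 20.4, n = 8). No neuron type exceeded a mean of 2.93 CPM. Its pattern was most like those of Cyp4f17 (r = 0.97) and Ppara, a lipid-metabolism nuclear receptor (r = 0.96).

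Adamts5 was shared by astrocytes (30.8 ± 15.3 CPM, n = 8) and OPC (25.7 ± 3.85, n = 8). The astrocyte libraries ran from 13.1 to 49.2 CPM and enclosed the OPC range of 21.7 to 34.4. The GR-Con astrocyte libraries alone were at 13.1 to 22.6 CPM, most of them below the OPC range. All other types stayed below 8 CPM on average. The patterns most like it were those of Rfx4, a transcription factor of radial glia and astrocytes (r = 0.92), and Hapln3, a hyaluronan link protein (r = 0.89). Adamts1 was low throughout, with overlapping ranges in endothelial cells (10.3 ± 10.3, n = 7), Pvalb neurons (8.52 ± 1.22, n = 8), VLMC (7.38 ± 4.00, n = 7), OPC (6.62 ± 2.17, n = 8) and astrocytes (6.26 ± 3.24, n = 8). Its nearest patterns were Rad54b (r = 0.80) and A630014C17Rik (r = 0.79).

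**Figure D1:**
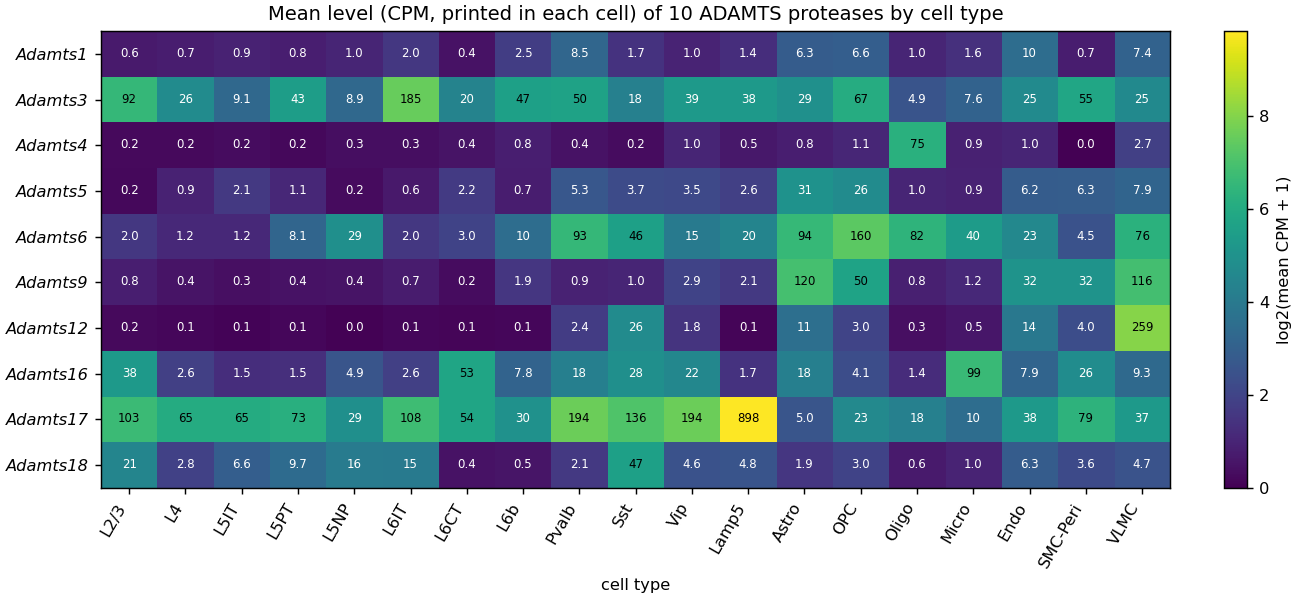
Mean level (CPM) of the 10 ADAMTS proteases (rows) in 19 cell types (columns), averaged over the libraries with at least 10 nuclei of the type and coloured on a log2(mean CPM + 1) scale. All groups were pooled, and chandelier cells are not shown. Adamts4 stands out in oligodendrocytes at 74.9 CPM, Adamts17 in Lamp5 neurons at 898, Adamts12 in VLMC at 259, and Adamts9 in astrocytes and VLMC at 120 and 116.

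The remaining members marked other cells. Adamts12 was highest in VLMC (259 ± 134 CPM, n = 7), where the lowest library, at 99.6, lay above the highest Sst library, at 32.3. Sst neurons (25.6 ± 5.62, n = 8), endothelial cells (14.3 ± 4.78, n = 7) and astrocytes (11.1 ± 4.85, n = 8) followed with overlapping neighbours, and the excitatory types were at means of 0.200 CPM or less. Its nearest patterns were Ggact (r = 0.89) and Nudt12 (r = 0.86). Adamts6 was highest in OPC (160 ± 19.8 CPM, n = 8), above astrocytes, Pvalb neurons, oligodendrocytes and VLMC at means of 93.7, 92.6, 81.7 and 76.5. Its nearest patterns were Ice2 and Cyp4f16 (r = 0.89 for both). Adamts16 was highest in microglia (99.0 ± 31.9 CPM in the 5 libraries with enough microglia), overlapping with L6CT neurons (53.2 ± 16.5, n = 8), which overlapped with L2/3 neurons (38.0 ± 20.7, n = 8). Its nearest patterns were weaker, 4930595D18Rik (r = 0.69) and Traf3 (r = 0.67).

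Adamts17 was highest in interneurons. Lamp5 interneurons held 770.0 to 1000.2 CPM (mean 898 ± 87.4, n = 8), with no overlap with Vip (194 ± 24.5), Pvalb (194 ± 23.4) or Sst (136 ± 25.3) interneurons. Chandelier cells (ChC), left out of the order because only 3 libraries held enough of them, came nearest at 623 ± 76.4 CPM (549 to 702). Smooth muscle cells and pericytes, at 79.4 ± 42.5 (n = 6), lay above 6 of the excitatory types, endothelial cells (37.8) and VLMC (37.3) lay above L6b (29.8) and L5NP (28.9) neurons, and astrocytes were lowest at 4.95. Its nearest patterns were Gm46102 and Armcx5 (r = 0.91 for both). Adamts3 was highest in L6IT neurons (185 ± 28.6 CPM, n = 8) without overlap with L2/3 neurons (92.5 ± 17.8, n = 8), and OPC followed at 66.7 ± 11.04. Its nearest patterns were E130006D01Rik (r = 0.74) and Car12 (r = 0.73). Adamts18 was highest in Sst interneurons (47.0 ± 8.64 CPM, n = 8), again without overlap with the next type, L2/3 neurons at 20.9 ± 1.78, and its nearest patterns were AI504432 (r = 0.80) and Gm27008 (r = 0.76). The cell types come from clusters made on expression in these same nuclei, so these differences between types are given as descriptions without a test.

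The genotype comparison in astrocytes asked which genes depend on astrocyte GR. Adamts5, Adamts16 and Adamts12 were higher in GR-KO than in GR-Con astrocytes under both rearings, and Adamts9 was higher under NR and over both rearings together. In NR, 4 members passed the likelihood ratio test and all 4 were higher, where 3.73% of the genes tested were called higher. In DR there were 3, all higher, against 0.233% of genes, and over both rearings 4, all higher, against 1.9%. The members were chosen with earlier results of these data known, so these counts are no test of the family. The study itself names Adamts5, Adamts9, Adamts12 and Adamts16 as rising with astrocyte GR loss. Adamts20, which is not a member here, fell in NR, as given below. Adamts4, at 0 to 1.54 CPM in astrocytes, fell below the count filter and was not tested between genotypes with all libraries in the fit. Once the male NR GR-Con library was left out, Adamts4 entered the NR test, with a higher level in GR-KO. That fit left GR-Con without a replicate and drew on few counts, 49 UMIs over all libraries, so no call is read from it. The quasi-likelihood test of edgeR, which allows for uncertainty in the spread, called 3 members in NR, 0 in DR and 3 over both rearings, and DESeq2 called 4, 2 and 4. In DR the quasi-likelihood test called none of the 14139 genes, with 4 members at an unadjusted p under 0.05.

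Adamts5, an aggrecanase, was at 19.6 and 22.6 CPM in NR GR-Con and at 35.8 and 49.2 in NR GR-KO astrocytes. Under DR it was at 13.7 and 13.1 CPM in GR-Con and at 48.5 and 43.6 in GR-KO. The 4 GR-KO libraries all lay above the 4 GR-Con libraries. On the log2 scale the genotype difference was 0.96 ± 0.21 (SE) in NR (adjusted p = 0.000206, edgeR likelihood ratio test), 1.80 ± 0.23 in DR (adjusted p = 6.65e-11) and 1.36 ± 0.20 over both rearings (adjusted p = 2.43e-09). By quasi-likelihood, the DR comparison gave Adamts5 an adjusted p of 0.0747.

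Adamts16, which is known to cut fibronectin, was at 10.3 and 8.96 CPM in NR GR-Con and 19.0 and 27.2 in NR GR-KO astrocytes. In DR it was at 11.7 and 6.48 CPM in GR-Con and 31.7 and 27.0 in GR-KO. Here too the GR-KO and GR-Con libraries did not overlap. The difference in log2 was 1.21 ± 0.24 in NR (adjusted p = 2.02e-05, edgeR likelihood ratio test), 1.69 ± 0.34 in DR (adjusted p = 0.000365; 0.283 by quasi-likelihood) and 1.44 ± 0.22 over both (adjusted p = 1.04e-08).

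Adamts12 was at 5.48 and 9.26 CPM in NR GR-Con and 12.9 and 19.0 in NR GR-KO astrocytes, and at 5.76 and 7.43 in DR GR-Con and 13.7 and 15.0 in DR GR-KO. Its lowest GR-KO library lay above its highest GR-Con library. The log2 difference was 1.06 ± 0.29 in NR (adjusted p = 0.00673, edgeR likelihood ratio test; 0.0698 by quasi-likelihood), 1.16 ± 0.29 in DR (adjusted p = 0.014; 0.329) and 1.11 ± 0.21 over both rearings (adjusted p = 2.04e-05; 0.0153). In NR, Adamts12 lost the call without the NR GR-Con male library (log2 difference 0.72, adjusted p = 0.283) and without the NR GR-KO female library (0.73, adjusted p = 0.17). In DR, the calls of Adamts12 and Adamts16 were lost without either DR GR-KO library, for Adamts16 with adjusted p of 0.461 without the male and 0.126 without the female and for Adamts12 with 1.00 in both cases.

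Adamts9 was at 81.4 and 69.8 CPM in NR GR-Con and 106 and 111 in NR GR-KO astrocytes, a log2 difference of 0.46 ± 0.15 (adjusted p = 0.0261, edgeR likelihood ratio test) that was called in none of the 4 fits without 1 library. Under DR it reached 199.9 and 186 CPM in GR-KO, while the DR GR-Con libraries were far apart, at 137 (male) and 64.7 (female). That difference of 0.95 ± 0.36 did not pass (adjusted p = 0.361). It was 1.63 without the DR GR-Con male library and 0.49 without the female. Each of these fits left GR-Con without a replicate, so no call is read from them. Over both rearings Adamts9 differed by 0.71 ± 0.22 (adjusted p = 0.0293; 0.118 by quasi-likelihood), and 3 of the 8 fits without 1 library called it.

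**Figure D2:**
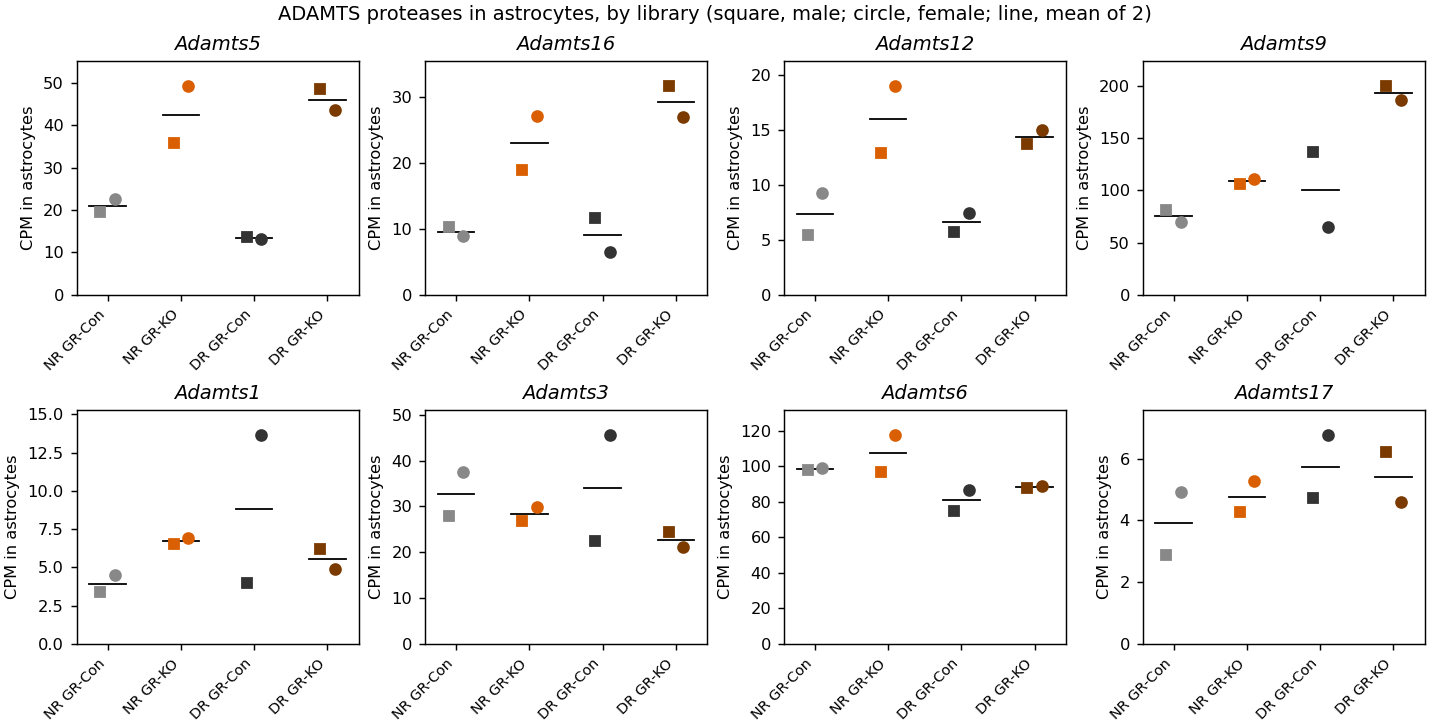
Level (CPM, linear axis from 0) of 8 ADAMTS proteases in the astrocytes of each library, with squares for male, circles for female libraries and a line at the mean of 2. The GR-KO libraries of Adamts5, Adamts16 and Adamts12 lie above all GR-Con libraries, while the DR GR-Con libraries of Adamts9 lie apart at 137 and 64.7 CPM.

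The other 5 members tested in astrocytes did not pass in either rearing. Adamts1 had a log2 genotype difference of 0.71 ± 0.28 in NR and of -0.63 ± 0.57 in DR, where its GR-Con libraries were at 3.98 (male) and 13.6 CPM (female) and the sign turned to 0.46 without the female library. Without the DR GR-Con male library the DR difference of Adamts1 was -1.26, in a fit that left GR-Con without a replicate. Over both rearings Adamts1 passed at 0.62 (adjusted p = 0.0381, edgeR likelihood ratio test) without the DR GR-Con female library. Adamts3, the procollagen and reelin protease, differed by -0.26 ± 0.19 in NR and -0.55 ± 0.36 in DR. Its DR difference was -0.96 without the DR GR-Con male library, again with GR-Con left without a replicate. Adamts6, with 74.5 to 117 CPM one of the well-detected members in astrocytes, differed by 0.06 ± 0.16 and 0.16 ± 0.20. Adamts17 differed by 0.24 ± 0.34 and -0.06 ± 0.37 and Adamts18 by -0.13 ± 0.82 and 0.34 ± 0.57, both at under 7 CPM in all libraries.

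**Figure D3:**
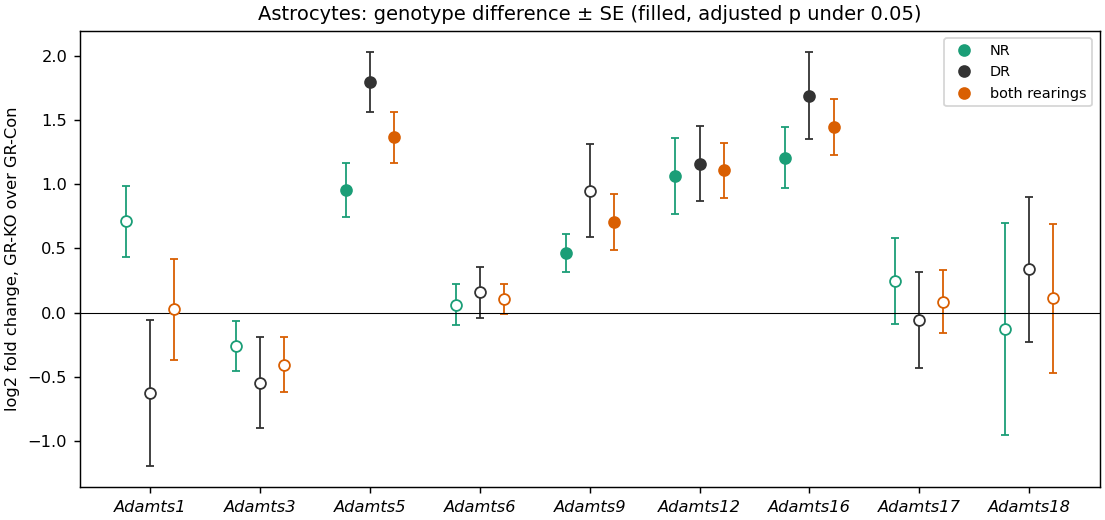
Log2 fold change of GR-KO over GR-Con ± SE in astrocytes for the 9 members tested, in NR, in DR and over both rearings, with filled points where the adjusted p of the likelihood ratio test was under 0.05. Adamts5, Adamts12 and Adamts16 are filled at 0.96 to 1.80 in all 3 comparisons, Adamts9 in NR and over both rearings, and the other 5 members are open.

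Adamts5 and OPC, Adamts16 and microglia, and Adamts12 and Adamts9 and VLMC are pairs in which another cell type holds a comparable or higher level, so the markers of these cells were summed in astrocytes. The 4 OPC markers summed to 14.5 to 15.7 CPM in NR GR-Con and 16.95 to 17.7 in NR GR-KO, and to 10.1 to 13.6 in DR GR-Con and 10.4 to 12.1 in DR GR-KO, with none at 0. The 5 microglia markers summed to 20.8 to 23.1, 22.5 to 28.0, 18.4 to 20.5 and 19.3 to 21.1 CPM in the same order. The 6 VLMC markers summed to 12.8 to 14.8 and 8.80 to 13.5 CPM in NR and to 11.7 to 12.3 and 8.91 to 10.98 in DR, so they were lower in GR-KO in DR and overlapped in NR. The 6 markers of excitatory neurons were higher in NR GR-KO (263 to 275 CPM) than in NR GR-Con (177 to 234) and in DR the GR-KO range, 174 to 178, lay inside that of GR-Con, 149 to 196. The 5 markers of oligodendrocytes were also higher in GR-KO, at 151 to 193 against 114 to 132 in NR and 98.7 to 105 against 71.0 to 93.6 in DR. The part of all these cells in the genotype differences was not tested. Adamts16 also had a higher mean in L6CT, L2/3, Sst, Vip and chandelier neurons and in smooth muscle cells and pericytes than in astrocytes. Adamts12 also had a higher mean in Sst neurons and endothelial cells. Sums of inhibitory neuron and endothelial markers in astrocytes are not given here.

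Of the 3 members called in both rearings, Adamts12 has an entry among the RefSeq promoter windows (GRCm38.p6), and those of Adamts5 and Adamts16 are not shown. The window of Adamts12, from 250 bases before to 50 after the start, is chr15:11064523-11064822 on the plus strand, is 62% G or C, and reads 5′ to 3′ as follows.
Adamts12: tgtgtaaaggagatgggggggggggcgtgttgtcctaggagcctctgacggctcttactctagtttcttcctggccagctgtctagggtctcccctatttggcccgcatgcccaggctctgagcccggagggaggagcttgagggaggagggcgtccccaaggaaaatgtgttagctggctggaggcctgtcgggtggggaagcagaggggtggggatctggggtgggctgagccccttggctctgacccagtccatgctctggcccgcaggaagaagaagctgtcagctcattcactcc
It was searched on both strands for the core of the GR response element, written here as GNACA and TGTNC held apart by 3 bases, and for its hexamer TGTTCT or AGAACA, which the core can overlap. No letters are in capitals because neither is present. The core is in 0.475% and the hexamer in 19.0% of 32851 windows of this length. The other 5 members with a window, Adamts1, Adamts3, Adamts9, Adamts17 and Adamts18, hold neither.

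Other genes of the pathway were read from lists of their substrates, activators, inhibitors and relatives. Among 13 substrates, 10 were tested in astrocytes and 2 rose in GR-KO in NR, where 3.73% of all genes were called higher: the proteoglycan gene Vcan and the secreted guidance protein gene Reln. The median over the substrates was 0.28 in log2, against 0.00 over all genes tested. Vcan, the versican that Adamts1, Adamts5 and Adamts9 cut, was at 25.6 and 26.7 CPM in NR GR-Con, 70.4 and 88.9 in NR GR-KO, 48.4 and 51.2 in DR GR-Con and 126 and 118 in DR GR-KO. It differed by 1.55 ± 0.17 in NR (adjusted p = 2.05e-16, edgeR likelihood ratio test) and 1.32 ± 0.20 in DR (adjusted p = 2.68e-08), and it was also higher in DR than in NR in both genotypes (0.91 in GR-Con, adjusted p = 0.0208, and 0.69 in GR-KO, adjusted p = 0.000695). The GR-KO and GR-Con libraries of Vcan did not overlap within either rearing. Reln was at 4.52 and 4.63 CPM in NR GR-Con and 10.4 and 8.46 in NR GR-KO, a log2 difference of 0.97 ± 0.26 (adjusted p = 0.00386). In DR, Reln was at 11.2 and 7.97 CPM in GR-Con and 8.60 and 8.91 in GR-KO and did not pass (-0.12 ± 0.32). Excitatory neuron markers were also higher in NR GR-KO astrocytes and not in DR, as given above. The part of neuron RNA in the rise of Reln was not tested. Over both rearings, where 1.9% of genes were called higher and 2.91% lower, Vcan (1.42) and the lymphatic growth factor gene Vegfc (0.66, adjusted p = 0.0248), a target of Adamts3, rose, and the collagen gene Col1a2 fell by 1.03 on the log2 scale (adjusted p = 0.0131). Col1a2 is also among the VLMC markers summed above and was at only 1.99 to 8.51 CPM in astrocytes. The part of VLMC RNA in its fall was not tested. Bcan, the brevican gene, had the highest level of the substrates, at 526 ± 51.5 CPM (n = 8), and passed in no genotype comparison.

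In NR 3.37% of all genes tested in astrocytes were called lower in GR-KO, and in DR 0.502%. Of 9 genes of activation and clearance, all tested, the heparan sulphate proteoglycan gene Sdc4 fell by 1.09 on the log2 scale in NR (adjusted p = 1.53e-11, edgeR likelihood ratio test) and by 0.75 in DR (adjusted p = 0.0203). Its libraries were at 143 and 130 CPM in NR GR-Con, 65.0 and 69.3 in NR GR-KO, 109 and 118 in DR GR-Con and 64.3 and 68.2 in DR GR-KO. The low-density lipoprotein receptor relative Lrp1b had the highest level of this list, at 1528 ± 319 CPM (n = 8). It rose by 0.65 in NR (adjusted p = 0.00882, edgeR likelihood ratio test). In DR it did not pass (0.08 ± 0.21), at 1651 and 1459 CPM in GR-Con and 1749 and 1490 in GR-KO. The part of neuron RNA in the rise of Lrp1b was not tested. Of 5 inhibitors, 4 were tested and Timp4 fell by 0.57 on the log2 scale in NR (adjusted p = 0.00587), with a DR difference of -0.02 ± 0.28 that did not pass and GR-KO libraries, at 41.6 and 42.4 CPM, between those of GR-Con, at 52.6 and 33.6, while Timp3 had the highest level, 134 ± 11.01 CPM, and did not pass. Of the 9 other ADAMTS proteases, 4 were tested and Adamts20, the highest of them in astrocytes at 42.4 ± 22.8 CPM, fell by 1.26 in NR (adjusted p = 7.31e-16). Its DR GR-Con libraries were far apart, at 79.99 and 18.1 CPM, and it did not pass in DR (-0.73, adjusted p = 1.00). None of the 4 ADAMTS-like genes tested passed in either rearing; Adamtsl5 was the highest at 6.39 ± 1.92 CPM.

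Between 51 and 119 astrocyte nuclei per library carried a viral EGFP UMI, 4.18% to 11.98% of them at median depths of 4889 to 12123.5 UMIs. EGFP UMIs were also found in other cells, in 0.286% to 4.52% of L4 neurons (15659.5 to 32204.5 UMIs), 0.136% to 2.73% of L2/3 neurons (18144 to 37731 UMIs) and 0% to 0.265% of oligodendrocytes (7040 to 15571 UMIs), and the study's methods give a gate for GFP-negative nuclei. Nuclei with and without an EGFP UMI are therefore not clean groups of infected and uninfected cells, and a lack of calls between them says little about the members. The difference between nuclei with and without it was compared between GR-KO and GR-Con libraries, and no member was called, where 0.124% of the genes tested were called. DESeq2 and quasi-likelihood called no member either, and Adamts18 (unadjusted p = 0.0229) was the member with an unadjusted p under 0.05. Within the GR-Con libraries alone, Adamts12 was lower in nuclei with an EGFP UMI, with a log2 difference of -2.39 ± 0.64 (adjusted p = 0.0223, edgeR likelihood ratio test), where 0.607% of genes were called lower, and in GR-KO libraries, where 1.67% were called lower, its difference was -0.88 ± 0.30 (adjusted p = 0.0826).

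Rearing was compared within each genotype to ask which genes depend on visual experience. In GR-KO astrocytes 1 member passed, and it rose: Adamts9 went from 106 and 111 CPM in NR to 199.9 and 186 in DR, by 0.90 ± 0.12 in log2 (adjusted p = 5.41e-10, edgeR likelihood ratio test; 0.00213 by quasi-likelihood), where 0.642% of genes were called higher. The call held in all 4 fits without 1 library. Without the NR GR-KO female library Adamts16 differed by 0.70 and Adamts18 by 2.30, with NR left without a replicate. In GR-Con astrocytes no member passed, where 0.147% of genes did, and none did over both genotypes, where 0.917% did. Without the DR GR-Con male library the GR-Con differences were 1.75 for Adamts1 and -0.72 for Adamts5. Without the female, Adamts9 differed by 0.87 in GR-Con. These GR-Con fits left DR without a replicate. Over both genotypes Adamts9 was called at 0.88 without the DR GR-Con female library. The interaction, taken as the NR genotype difference less the DR one, was called for no member in astrocytes, where 0.386% of genes were called. Adamts5, with an interaction of -0.85 ± 0.32, had an unadjusted p of 0.00728 and an adjusted p of 0.429, and the one for Adamts9 was -0.49 ± 0.42. Without the DR GR-Con male library the interaction was called for Adamts9 and Adamts1. DESeq2 and quasi-likelihood called no member in these 3 comparisons. Unadjusted p values under 0.05 were found for 1 member in GR-Con, 2 over both genotypes and 1 in the interaction.

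Among the 8 excitatory neuron types, over both genotypes, Adamts17 was higher in DR in 7, Adamts3 in 5, Adamts16 in 4 and Adamts18 in 1, and no member was called in L6b. Over both genotypes, 56 pairs of a member and an excitatory type were tested, 17 were higher in DR and 2 lower, where 3.89% of all gene and type pairs were called higher and 3.99% lower. Counts of the quasi-likelihood test were 12 higher and 1 lower. In GR-Con alone 19 of 55 pairs were higher, against 2.17%, and in GR-KO alone 11 of 56, against 2.22%, with 7 and 2 by quasi-likelihood. The median log2 difference over the 56 pairs was 0.48.

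Adamts17, the Lamp5-rich member, was higher in DR in 7 of the 8 excitatory types over both genotypes, all but L6b, by 0.63 to 1.24 in log2. In L6CT neurons the 4 NR libraries were at 25.0, 32.7, 30.0 and 40.4 CPM (GR-Con male and female, then GR-KO male and female) and the 4 DR libraries at 53.5, 75.7, 89.8 and 84.2. In L2/3 neurons they were at 68.7, 66.7, 87.8 and 71.2 in NR and 108, 131, 161 and 129 in DR. In L5PT neurons they were at 49.0, 47.3, 55.0 and 57.4 in NR and 75.4, 93.5, 105 and 97.7 in DR. In all 3 types the DR and NR libraries did not overlap. The log2 differences were 1.24 ± 0.15 in L6CT (adjusted p = 5.3e-13, edgeR likelihood ratio test), 0.84 ± 0.12 in L2/3 (adjusted p = 1.95e-10) and 0.84 ± 0.10 in L5PT (adjusted p = 1.78e-12). The quasi-likelihood test called 6 of these types and DESeq2 called 7, and the fits without 1 library called 7 or 8. L6b neurons differed by 0.48 and were not called. Within 1 genotype, Adamts17 passed in 5 types in GR-Con and in 7 in GR-KO, with 3 and 2 in GR-Con without its NR male or NR female library and 1 in GR-KO without the DR GR-KO male library. The 5 markers of inhibitory neurons summed to 4.73 to 7.51 CPM in DR and 7.13 to 10.7 in NR L6CT neurons, and to 3.95 to 8.65 and 5.14 to 9.56 in L2/3.

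**Figure D4:**
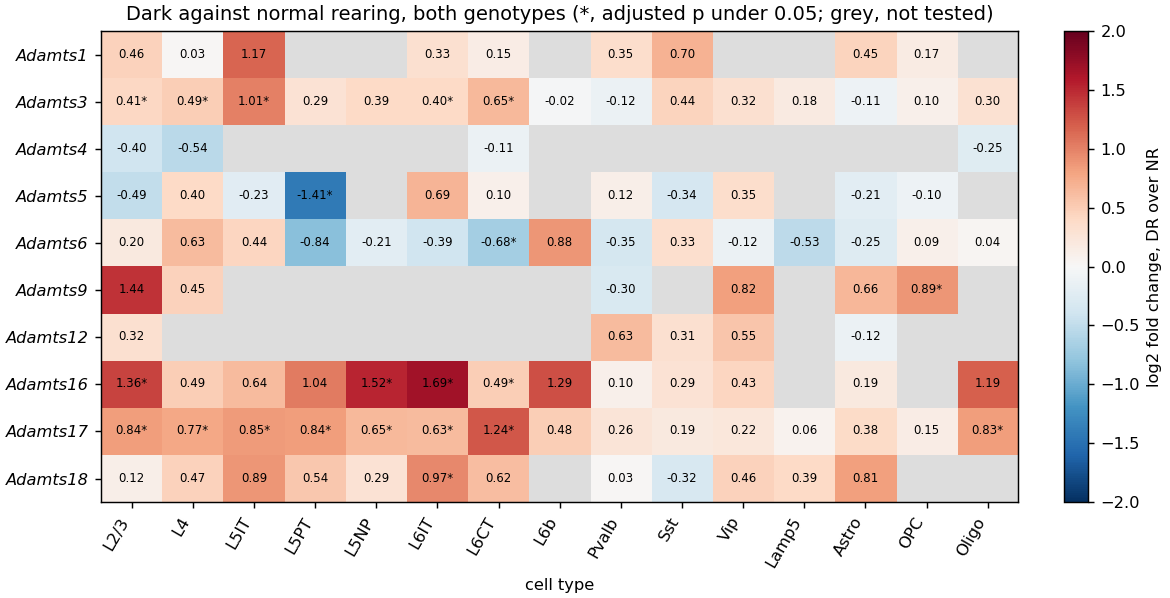
Log2 fold change of DR over NR across both genotypes for the 10 members (rows) in the cell types with enough nuclei in all 8 libraries (columns), with an asterisk where the adjusted p of the likelihood ratio test was under 0.05 and grey where the gene was not tested. The asterisks gather in the excitatory types for Adamts17, with 7 types, Adamts3, with 5, and Adamts16, with 4.

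Adamts16 was higher in DR in 4 excitatory types over both genotypes. In L2/3 neurons it was at 17.1, 22.1, 26.8 and 18.8 CPM in NR and at 48.6, 74.3, 58.0 and 38.2 in DR (1.36 ± 0.22, adjusted p = 3.81e-08, edgeR likelihood ratio test). In L6CT neurons the NR libraries lay close together at 42.5, 43.8, 43.2 and 44.7 CPM and the DR libraries at 68.9, 87.6, 51.0 and 43.7 (0.49 ± 0.16, adjusted p = 0.0251; 0.0665 by quasi-likelihood). The 2 DR GR-Con libraries were the highest in L6CT, while 1 DR GR-KO library lay within the NR range. Adamts16 also rose in L5NP (1.52 ± 0.27, adjusted p = 1.69e-05) and in L6IT (1.69 ± 0.50, adjusted p = 0.0183; 0.0932 by quasi-likelihood), where all DR libraries lay above all NR libraries but at under 10 CPM. In GR-Con Adamts16 passed in 5 types (2 once the male NR GR-Con library was left out, 3 for the female) and in GR-KO in 1, L2/3 (0 without the DR GR-KO male library), and the interaction of Adamts16 passed in no type. Across the fits without 1 library it passed in 2 to 5 types over both genotypes, with 2 without either NR GR-Con library.

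Adamts3 was higher in DR in 5 excitatory types over both genotypes: L2/3 (0.41), L4 (0.49), L5IT (1.01), L6IT (0.40) and L6CT (0.65). Within 1 genotype it passed in L5IT and L6CT of GR-Con and in L2/3, L4 and L6IT of GR-KO, so no type passed in both. In L6IT neurons, where its level was highest, it was at 161, 169, 156 and 150.2 CPM in NR and at 214, 203, 219.97 and 206 in DR, with no overlap (0.40 ± 0.09, adjusted p = 0.000629, edgeR likelihood ratio test). In L5IT neurons it was at 6.002, 5.97, 7.71 and 4.13 CPM in NR and 12.2, 13.7, 13.2 and 9.50 in DR, again with no overlap (1.01 ± 0.21, adjusted p = 0.000205). The quasi-likelihood test called 3 of the 5 types, and the fits without 1 library called 2 to 4 types. The count for Adamts3 was 2 without the NR GR-KO female or the DR GR-KO male library, and 3 without the NR GR-KO male, NR GR-Con male or DR GR-KO female library.

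Adamts18, the relative of Adamts16, was higher in DR in L6IT neurons over both genotypes. It was at 6.95, 10.97, 12.1 and 10.8 CPM in NR and 25.1, 22.4, 20.4 and 12.97 in DR (0.97 ± 0.23, adjusted p = 0.00146, edgeR likelihood ratio test), with no overlap. In GR-Con it also rose in L5IT (1.66 ± 0.25, adjusted p = 8.28e-09), from 3.65 and 2.86 to 9.80 and 10.8 CPM, in L5PT (1.35 ± 0.22, adjusted p = 4.22e-07), from 6.11 and 6.64 to 13.7 and 19.2 CPM, and in L6CT, where it stayed under 1 CPM. The L6CT call was lost by quasi-likelihood (adjusted p = 0.243) and by DESeq2 (adjusted p = 0.383). Without the NR GR-Con male library the count in GR-Con was 2 in place of 4. In GR-KO Adamts18 passed in none of the 7 types tested. DESeq2 and quasi-likelihood called none of them in GR-KO either, but L6IT was called with a sex term (0.53, adjusted p = 0.049, edgeR likelihood ratio test). The L6IT difference was 0.62 with a term for the UMI floor, which within GR-KO marks the NR male library alone. It was 0.61 with that library left out. Both of these fits leave NR GR-KO without a replicate. The interaction of Adamts18 was not called in any type. Over both genotypes, Adamts18 passed in 4 types without the NR GR-KO male library and in 2 without the DR GR-KO female library.

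**Figure D5:**
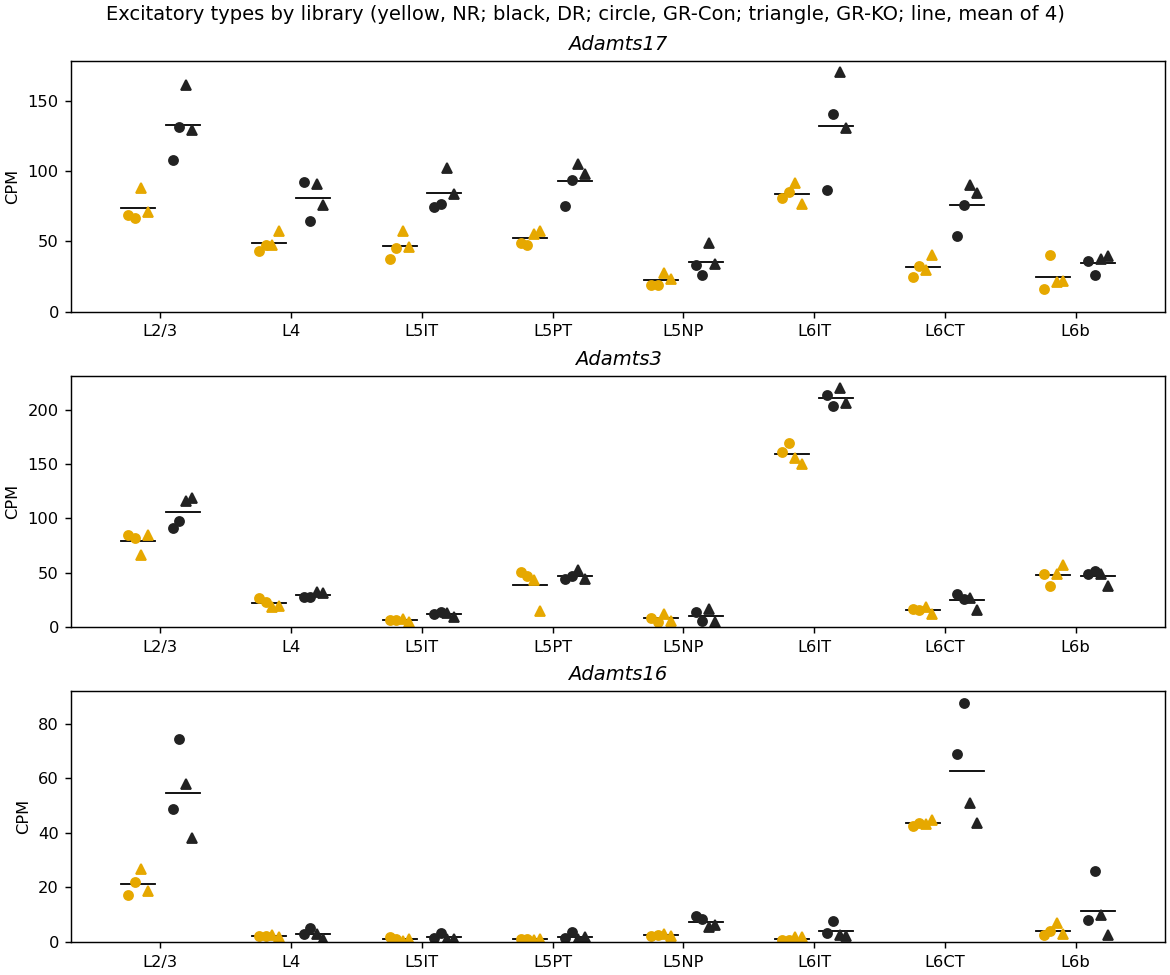
Level (CPM, linear axis from 0) of Adamts17, Adamts3 and Adamts16 in 8 excitatory neuron types by library, with NR in yellow, DR in black, circles for GR-Con, triangles for GR-KO and a line at the mean of 4. For Adamts17 the DR libraries lie above all NR libraries in L2/3, L4, L5IT, L5PT and L6CT, with means of 132 against 73.6 CPM in L2/3 and 75.8 against 32.0 in L6CT.

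Promoter windows are shown for the 2 members that rose in the most excitatory types and have an entry, a choice made after their values were seen. The windows are from RefSeq (GRCm38.p6), 5′ to 3′ on the strand of the gene, with no letters in capitals because the GR core and hexamer above are absent.
Adamts17: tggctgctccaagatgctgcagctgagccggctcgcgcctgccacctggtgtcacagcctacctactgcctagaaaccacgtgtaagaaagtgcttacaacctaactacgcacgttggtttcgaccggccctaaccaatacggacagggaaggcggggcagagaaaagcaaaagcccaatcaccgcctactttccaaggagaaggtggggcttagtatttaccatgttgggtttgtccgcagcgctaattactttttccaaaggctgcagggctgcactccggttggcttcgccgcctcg
Adamts3: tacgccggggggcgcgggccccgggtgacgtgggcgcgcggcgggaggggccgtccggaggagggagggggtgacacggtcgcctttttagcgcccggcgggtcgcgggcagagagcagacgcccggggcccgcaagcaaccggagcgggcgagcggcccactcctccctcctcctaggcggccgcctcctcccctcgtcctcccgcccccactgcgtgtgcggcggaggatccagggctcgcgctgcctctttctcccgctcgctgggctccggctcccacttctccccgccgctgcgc
They are chr7:66839485-66839784 (plus strand) for Adamts17 and chr5:89883285-89883584 (minus strand) for Adamts3. The Adamts17 window is 55.7% G or C with 17 CG dinucleotides and the Adamts3 window 77.3% with 41, while that of Adamts12 holds 7.

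The excitatory pairs that were lower in DR over both genotypes were Adamts5 in L5PT and Adamts6 in L6CT, both at low levels. These 2 of 56 pairs are no more than the share called lower among all pairs, 3.99%. Adamts5 went from 1.13 to 2.06 CPM in the NR libraries to 0.511 to 0.713 in DR (-1.41 ± 0.33, adjusted p = 0.00253, edgeR likelihood ratio test, against 0.0783 by quasi-likelihood). DESeq2 gave Adamts5 in L5PT no adjusted p. Adamts6 went from 3.22 to 4.63 CPM to 1.61 to 3.11 (-0.68 ± 0.19, adjusted p = 0.00558). In both, all DR libraries lay below all NR libraries. Within 1 genotype, calls were also made at such low levels for Adamts9 in L2/3 of GR-Con, from 0.263 and 0.0981 CPM to 1.19 and 2.46 (3.24 ± 0.56, adjusted p = 6.81e-07), for Adamts1 in L5IT and Adamts6 in L4 of GR-Con (both higher), for Adamts5 in L5PT of GR-Con (lower) and for Adamts6 in L6CT of GR-KO (lower). Quasi-likelihood called none of these, with the lowest adjusted p, 0.0525, for Adamts9 in L2/3. DESeq2 called only that pair among them. Adamts6 was also lower in L5PT of GR-KO, from 12.5 and 9.63 CPM in NR to 3.06 and 5.57 in DR (-1.36 ± 0.35, adjusted p = 0.0151, against 0.269 by quasi-likelihood). DESeq2 gave that pair no adjusted p. For Adamts9 in L2/3 the interaction passed by DESeq2 (3.58, adjusted p = 0.0446) and not by the likelihood ratio test.

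In the 4 inhibitory types tested none of 29 pairs of a member and a type passed over both genotypes, where 2.04% of all gene and type pairs did. The quasi-likelihood test also called 0 and DESeq2 called Adamts17 (higher) and Adamts6 (lower) in Pvalb neurons, and 12 pairs had an unadjusted p under 0.05. Adamts17 in Lamp5 neurons, where its level was highest, differed by 0.06. Outside the neurons, Adamts9 rose in DR in OPC, from 27.8 to 47.7 CPM in the NR libraries to 53.9 to 91.4 in DR, with no overlap (0.89 ± 0.18, adjusted p = 0.000357, edgeR likelihood ratio test), where 0.947% of genes were called higher. In GR-Con OPC alone Adamts9 rose by 1.19 ± 0.23 (adjusted p = 0.000444, against 0.123 by quasi-likelihood). The 7 markers of astrocytes summed to 575 to 655 CPM in the DR and 613 to 705 in the NR OPC libraries. Adamts17 rose in oligodendrocytes, from 10.0 to 16.1 CPM to 16.1 to 32.4 (0.83 ± 0.22, adjusted p = 0.00975; 0.0837 by quasi-likelihood), where 2.44% were called higher, and 4 of the 8 fits without 1 library called it. Adamts4, the oligodendrocyte protease, was at 70.2 to 95.6 CPM in NR and 57.7 to 76.3 in DR oligodendrocytes and did not pass (-0.25).

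In VLMC 5 members passed between DR and NR in GR-KO, where 19.9% of all genes tested did. Rearing was not tested in VLMC in GR-Con or over both genotypes, because the DR GR-Con female library held 3 VLMC nuclei. Adamts12 (1.44 ± 0.35, adjusted p = 0.000507, edgeR likelihood ratio test), Adamts9 (1.46 ± 0.38, adjusted p = 0.00126) and Adamts6 (1.47 ± 0.40, adjusted p = 0.00245) were higher and Adamts3 and Adamts17 lower in DR. Adamts12 was at 99.6 and 164 CPM in NR and 437.41 and 437.21 in DR. The libraries held 20 to 65 VLMC nuclei, and the NR GR-KO male library is one of those with a UMI floor, and the DR GR-KO libraries are not. Adamts3 rested on 12 and 27 UMIs in NR and 1 and 0 in DR. DESeq2 called Adamts12 alone (adjusted p = 0.0229), with 0.076 for Adamts9, 0.141 for Adamts6 and no adjusted p for Adamts3 and Adamts17, and quasi-likelihood lost Adamts17 (0.0803). Of the 4 fits without 1 library, Adamts12 was called in 4, Adamts6 in 3 (not without the DR GR-KO male), Adamts9 in 2 (not without the NR GR-KO female or the DR GR-KO female) and Adamts17 in 1 (without the NR GR-KO female), and Adamts3 was called in the 3 that tested it.

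Outside astrocytes the genotype comparison gave few calls. Microglia, where Adamts16 was highest, had too few nuclei in some libraries of each rearing and were not tested. VLMC, where Adamts12 was highest, were tested in NR only. In NR 1 of 101 pairs of a member and a cell type passed, where 0.37% of all pairs did: Adamts5 in Sst interneurons was at 5.96 and 6.18 CPM in GR-Con and 2.09 and 2.47 in GR-KO (-1.46 ± 0.35, adjusted p = 0.0342, edgeR likelihood ratio test). In DR 3 of 92 passed, where 0.496% did, all lower in GR-KO: Adamts16 in L6CT (-0.72, adjusted p = 0.0196), Adamts5 in L6CT (-1.13, adjusted p = 0.0223) and Adamts16 in Sst interneurons (-0.70, adjusted p = 0.0321). Over both rearings 2 of 96 passed, where 0.0739% did: in Sst interneurons Adamts16 went from 30.1 to 44.6 CPM in GR-Con to 15.3 to 25.6 in GR-KO (-0.62 ± 0.15, adjusted p = 0.0235) and Adamts5 from 3.53 to 6.18 CPM to 2.09 to 2.58 (-1.07 ± 0.26, adjusted p = 0.0313), both with no overlap. None of the 6 was called by quasi-likelihood, and each was called in 1 to 3 of its fits without 1 library. For the interaction none of 101 pairs outside astrocytes passed, where 0.166% of all pairs did, with 16 at an unadjusted p under 0.05, none called by quasi-likelihood and 1 by DESeq2.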

How the data were processed

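The labels give 8 samples in 4 groups of 2. The names of the 8 libraries show group and sex but not which of the 2 labelled replicates each is, so libraries carry group and sex here. The authors sorted nuclei by DRAQ5, with a GFP-negative gate that their methods give and the labels do not, made 10x 3′ libraries, counted reads with Cell Ranger 8.0.1 on mm10, filtered and clustered nuclei with Seurat 5.3.0, removed predicted doublets with DoubletFinder and deposited raw UMI counts for every gene in every nucleus. The deposited percent of mitochondrial UMIs per nucleus was not used. Deposited cell types were used as given, with no further doublet filter.

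UMI counts were summed per library and cell type. CPM divide by that sum; mean levels use libraries with at least 10 nuclei, and types with fewer than 4 such libraries (ChC) are left out of the order. Fits needed 10 nuclei in every library of the comparison. The main test was edgeR 4.0.16 in R 4.3.3 (glmLRT, two-sided), the test the study's methods name, with filterByExpr, TMM, estimateDisp and glmFit at their defaults as choices made here, and with Benjamini-Hochberg adjustment over all genes of a cell type; a gene was called below an adjusted p of 0.05, and SE is the fold change over the root of its likelihood ratio statistic. The fits across 8 libraries carry rearing or genotype as a term. The fits were tested on simulated data. The labels name each library's animal as a replicate; with 2 per group, p-values rest on little replication.

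Alternatives were the quasi-likelihood F-test, DESeq2, RLE size factors, no count filter, a sex term, equal numbers of nuclei, leaving out each library, and a term for the UMI floor, the last chosen after seeing the data. The members and lists were chosen with earlier results of these data known. All 10 members are named; of the other lists, genes called by genotype in astrocytes and the gene with the highest astrocyte level of each list are named, and for each member the 2 features of 15757 (mean of at least 5 CPM in a type) whose log2(mean CPM + 1) over 20 types correlated best. These correlations share libraries and depth and carry no p. Coordinates are from GENCODE vM21 by symbol. No protein sequences were used.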

Additional observations from a re-analysis of the deposited data

How the results depend on the processing

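Over both genotypes or both rearings, the counts of members called in astrocytes by genotype (4) and of pairs called outside astrocytes by rearing (21) moved by at most 1.5 times (the latter to 14 by quasi-likelihood) under each alternative tool, scaling, filter or term. In astrocytes the quasi-likelihood test called 0 members by genotype in DR in place of 3. Outside astrocytes it called 0, 0 and 0 pairs by genotype in NR, in DR and over both rearings, in place of 1, 3 and 2, and 7 and 6 by rearing in GR-Con and GR-KO in place of 21 and 18. DESeq2 called 0, 1 and 0 of those genotype pairs, 11 by rearing in GR-KO, and 1 for the interaction in place of 0. Outside astrocytes, without a count filter the genotype pairs were 0 in NR and 1 over both rearings. A sex term gave 3 in NR, 6 in DR and 4 for the interaction, and a term for the UMI floor, chosen after seeing the data, gave 3, 7 and 2. Equal nuclei gave 0 over both rearings and 1 for the interaction. Leaving out each library in turn, which leaves 1 library that is assumed to vary like the others, gave 2 to 3 members in astrocytes by genotype in NR, 1 to 6 in DR (6 without the DR GR-Con male library), 0 to 2 by rearing in GR-Con, 1 to 3 in GR-KO, 0 to 2 for the interaction and 0 to 1 by rearing over both genotypes (Adamts9, without the DR GR-Con female library). Outside astrocytes it gave 0 to 8 pairs by genotype in NR (8 without the NR GR-KO female library), 0 to 12 in DR (12 without the DR GR-Con male), 0 to 4 over both rearings, 10 to 32 by rearing in GR-Con, 5 to 26 in GR-KO and 0 to 4 for the interaction. The causes were not tested. Of the alternatives of single called results, 125 in astrocytes and 637 in other types kept the call, 23 and 177 lost it, and 0 turned direction. All 200 mean levels moved by less than 1 SD with TMM scaling or with the median. No paired analysis was possible because the library names do not carry the labels' replicate numbers; this concerns pairing by replicate number, and the sex term above is the fit that matches libraries across groups. Depth limits the low members: Adamts4, Adamts17 and Adamts18 were under 7 CPM in astrocytes.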
